A study of Xenopus laevis with 4 samples.

Results

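Skeletal muscle of the vertebrate embryo is set up by a small group of transcription regulators, and their transcripts were followed here in embryonic skins of the frog Xenopus laevis. All probe sets were taken whose single gene symbol in the platform annotation, without the homeolog suffix, was myf5, myod1, myf6, myog, pax3, pax7, smyd1, mef2a, mef2c or mef2d. The rule found 23 of the 16745 probe sets tested, for 15 gene symbols of 11295, and each of the 10 genes had at least 1 probe set. The suffixes .L and .S mark the duplicate copies (homeologs) of a gene in this allotetraploid species. The genes were chosen by the measured differences between treated and control skins, since muscle genes stood among those with the lowest differences, so the values of that comparison describe the chosen genes and are no test of them.

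RNA came from whole skins dissected at stage 24, with 20 skins pooled in each sample and embryos kept at 15 °C. The labels of the 2 control samples give no treatment and name no vehicle. The 2 treated samples came from embryos exposed to SP600125, a small molecule that blocks the JNK family of stress-activated kinases, from stage 14 until collection, at a dose that the labels give as 100 mM. The labels record no strain, sex or clutch, so the spread within a group is that between these samples and may be technical. Each sample was hybridised to 1 Affymetrix array, the values are log2 levels after robust multi-array averaging (RMA), and the 4 arrays limit the precision of every value.

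The myogenic basic helix-loop-helix (bHLH) factors MYF5, MYOD1, MYF6 (also called MRF4) and myogenin bind E-box DNA as dimers with E proteins and switch on muscle genes. PAX3 and PAX7 are paired-box factors of the dermomyotome and muscle precursors, and also of the neural plate border, neural crest and dorsal neural tube. MEF2 factors act together with the bHLH factors on muscle promoters but are present in many other tissues, and SMYD1 is a lysine methyltransferase of heart and skeletal muscle needed for sarcomere assembly. The somites, where these genes act in the embryo, lie directly under the trunk skin.

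The skins carried transcripts of epidermis, some of them at high level. Of the 20 measured genes of an epidermal list, 0 had a mean log2 level under 5. Over the whole table, with 1 probe set per gene symbol, 2641 of 11295 did. The goblet cell lectin itln1.L read 14.15 and 14.22 in the controls and 14.21 and 14.22 after SP600125. Other genes of the list were dimmer, such as foxj1.L with a mean of 6.50, below the lowest array median of 6.85. Transcripts of muscle were present too. The cardiac and skeletal actin actc1.L, the brightest probe set of the muscle list, read 11.77 and 10.44 in the controls and 9.33 and 8.93 after SP600125. In bulk RNA of dissected skins, fewer cells of a type, less RNA per cell and less underlying tissue taken with the skin cannot be told apart.

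In treated skins, 22 of the 23 probe sets of the myogenic regulators had a lower mean than in control skins, and in 15 both SP600125 arrays read below both controls. In 0 of them both SP600125 arrays read above both controls. The median difference, SP600125 minus control, was −0.53 on the log2 scale over the 23 probe sets and 0.01 over all 16745. Over all probe sets, 47.3% had a lower mean 9.25% had both SP600125 arrays below both controls and 11.9% had them above. The separation was widest for smyd1.L, myf5.L and pax3.S, and it was small or missing for myog and the mef2 genes.

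None of these differences was called. In a limma fit to the whole table, with p-values adjusted by the Benjamini-Hochberg method, 0% of probe sets were called at an adjusted p under 0.05, and the lowest adjusted p of the table was 1. At an unadjusted p under 0.05 the same fit counted 269 probe sets, 1.61% of those tested, and 152 of them were lower, 0.908%. Of the lower ones 7 belonged to the myogenic regulators, a number that the choice of genes fixed in part. An exact two-sided permutation of 2 against 2 arrays cannot give a p below 0.333. The differences below are therefore given as sizes with the standard error (SE) of that fit.

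**Figure D1:**
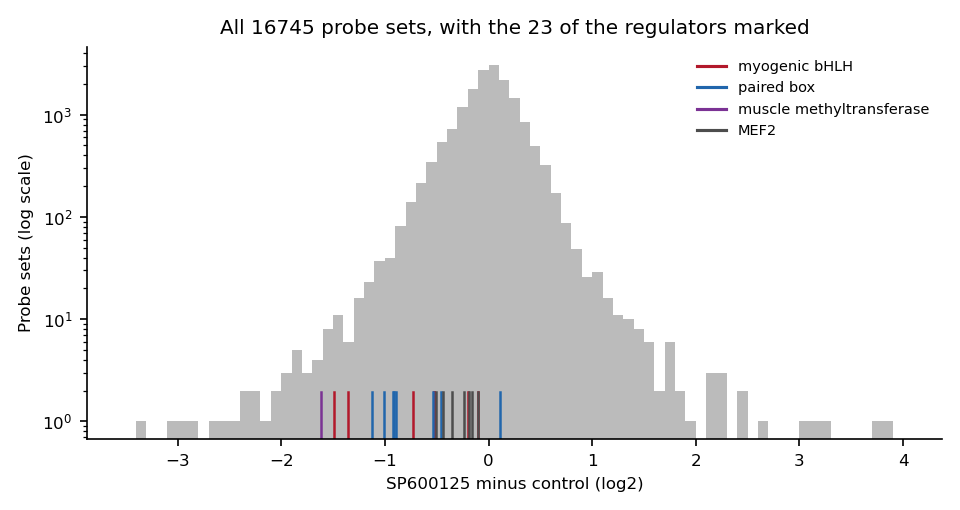
Histogram of the log2 difference, SP600125 minus control, for all 16745 probe sets in bins of equal width, with the number of probe sets on a log axis. Short coloured lines mark the 23 probe sets of the myogenic regulators by role. All but 1 lie left of 0, from −1.62 to 0.11, within the range of the other probe sets.

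Among the bHLH factors, myf5 is one of the earliest determination genes of the muscle lineage. Its single probe set, myf5.L, read 7.71 and 7.35 in the controls and 6.29 and 6.05 after SP600125. The groups were 1.06 log2 units apart at their nearest arrays, and each treated array lay far below each control. The mean level was 7.53 ± 0.25 in controls and 6.17 ± 0.17 after treatment (SD, n = 2), a difference of −1.36 ± 0.24 (SE), or 2.57-fold less.

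The other determination gene, myod1, was measured for both homeologs. The probe set of myod1.S read 7.46 and 6.11 in the controls and 5.61 and 4.98 after SP600125. The order of the groups was the same as for myf5.L, but the controls differed from each other by 1.35, nearly as much as the treatment difference of −1.49 ± 0.55, which was −0.82 without control replicate 1. The probe set of myod1.L was dimmer, at 5.24 and 4.97 in the controls and 4.43 and 4.72 after treatment. Its groups did not overlap either, with 0.25 between the nearest arrays and a difference of −0.53 ± 0.23. Cross-hybridisation between homeologs is possible, so the copies are not fully separate measurements.

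The gene myf6 encodes a bHLH factor that in mouse acts both in determination and in maturing fibres. Levels of myf6.L were 3.93 and 4.01 in the controls and 3.14 and 3.33 after SP600125. Levels of myf6.S were 3.53 and 3.63 against 3.09 and 3.01. Both probe sets were dim, with a mean rank in the lowest 8.95% and 4.3% of all probe sets, yet replicates lay within 0.19 of each other and neither pair of groups overlapped. The differences were −0.73 ± 0.20 and −0.53 ± 0.19. In the RefSeq gene table of Xenopus_laevis_v10.1, used here for gene order only, myf6 and myf5 are neighbours on both subgenomes.

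Myogenin, the product of myog, drives terminal differentiation of muscle cells in mouse. Its probe sets were the dimmest of the bHLH factors. For myog.L the controls read 3.27 and 3.30 and the SP600125 arrays 3.11 and 3.26, a gap of only 0.01. For myog.S they read 3.35 and 3.04 against 3.06 and 2.94, and the groups overlapped. The differences were −0.10 ± 0.19 and −0.20 ± 0.22. Whether the low signal of these probe sets bears on the size of their differences was not tested.

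**Figure D2:**
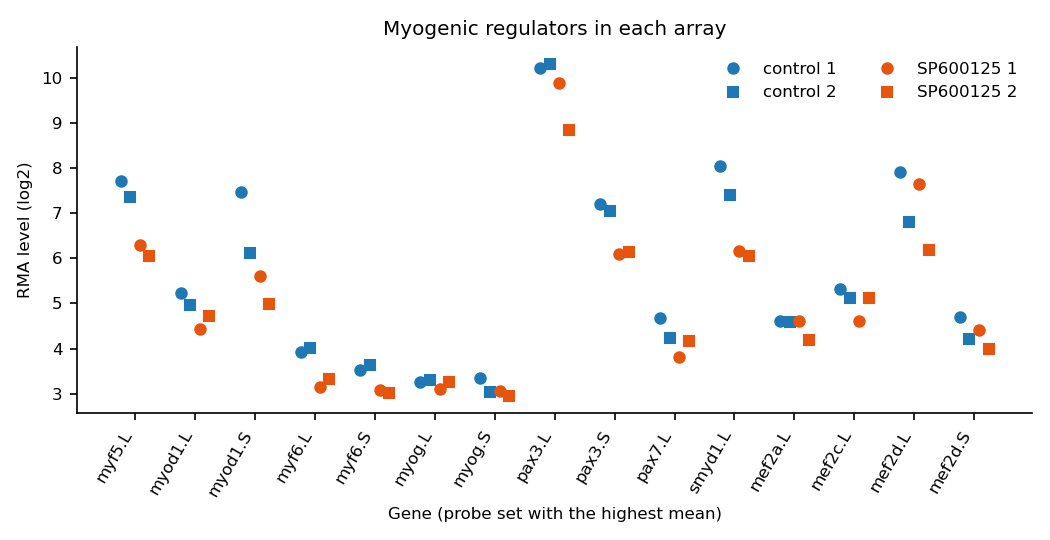
RMA log2 level of each measured homeolog, using its brightest probe set, in the 2 control arrays (blue) and the 2 SP600125 arrays (orange), with circles for replicate 1 and squares for replicate 2. The treated points lie below both controls for 10 of the 15 genes, beside 9.1% of all gene symbols. Levels are not comparable between genes because probe sets differ in brightness.

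The paired-box gene pax3 had more probe sets than any other member, 5 for pax3.L and 2 for pax3.S. The brightest of pax3.L read 10.21 and 10.31 in the controls and 9.89 and 8.85 after SP600125. Its treated arrays differed from each other by 1.04, more than the treatment difference of −0.89 ± 0.41, which was −0.37 without SP600125 replicate 2. A probe set of nearly the same brightness read 10.17 and 9.94 against 9.64 and 9.38, with a difference of −0.54 ± 0.22. The other 3 probe sets of pax3.L differed by −0.91 ± 0.25, −1.12 ± 0.53 and 0.11 ± 0.21. The last was dim, with a mean of 3.82, and was the only probe set of all 23 with a higher treated mean. In the remaining 4 both treated arrays lay below both controls.

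The copy pax3.S gave close replicates. Its brighter probe set read 7.21 and 7.04 in the controls and 6.10 and 6.13 after SP600125, and the difference was −1.01 ± 0.19. The groups were 0.91 apart, several times the distance between replicates. Its other probe set differed by −0.92 ± 0.20, but both carry the same source accession in the annotation and cannot count as separate evidence. The related gene pax7, for which pax7.L alone was measured, read 4.68 and 4.23 in the controls and 3.82 and 4.16 after SP600125. The groups were 0.07 apart and each was spread more widely than that, with a difference of −0.46 ± 0.27. Leaving out control replicate 1 gave −0.24, and leaving out SP600125 replicate 1 gave −0.29.

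The methyltransferase gene smyd1, known as Bop in mouse, had the lowest difference of the 23 probe sets. Levels of smyd1.L were 8.04 and 7.40 in the controls and 6.17 and 6.04 after SP600125. Treated arrays lay 0.13 from each other and 1.23 below the nearest control. The mean level was 7.72 ± 0.45 in controls and 6.10 ± 0.09 after treatment (SD, n = 2), a difference of −1.62 ± 0.29 or 3.07-fold less, although this size was among those for which the gene was chosen.

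The MEF2 genes showed less separation. Of their 7 probe sets all had a lower treated mean, but only 1 had both SP600125 arrays below both controls. It was a dim mef2a.L probe set, with a mean of 3.99 and 0.02 between the nearest arrays of the groups. In the whole table, 47.3% of probe sets had a lower mean and 9.25% had both SP600125 arrays below both controls. The MEF2 count of 1 in 7 lay near the latter share. Both SP600125 arrays lay below both controls in 6 of 7 probe sets for the bHLH factors and 7 of 8 for the paired-box genes. Median differences were −0.24 for the MEF2 probe sets, −0.53 for the bHLH factors and −0.90 for the paired-box genes. Whether these roles differ was not tested, since the probe sets of a gene share their transcript.

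The mef2d gene varied mainly with replicate number. The brighter probe set of mef2d.L read 7.90 and 6.81 in the controls and 7.65 and 6.19 after SP600125, so that replicate 1 was the higher array in both groups. Its difference was −0.44 ± 0.66, the groups overlapped, and the sign turned without control replicate 1 (0.11) or SP600125 replicate 2 (0.29). The other probe set of mef2d.L followed the same order, at 6.22 and 4.63 against 5.46 and 4.36, and mef2d.S did so with smaller steps, at 4.69 and 4.21 against 4.41 and 4.0.

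For mef2c.L, which encodes a factor of heart, muscle and neural crest, the controls read 5.33 and 5.11 and the treated arrays 4.61 and 5.13. The second treated array matched the controls, and the difference was −0.35 ± 0.27. It was −0.09 without SP600125 replicate 1 and −0.61 without SP600125 replicate 2. The 3 probe sets of mef2a.L were dim and differed by −0.10 to −0.19. The brightest of them read 4.60 and 4.58 in the controls and 4.61 and 4.18 after SP600125, with overlap, and its difference was 0.02 without SP600125 replicate 2.

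**Figure D3:**
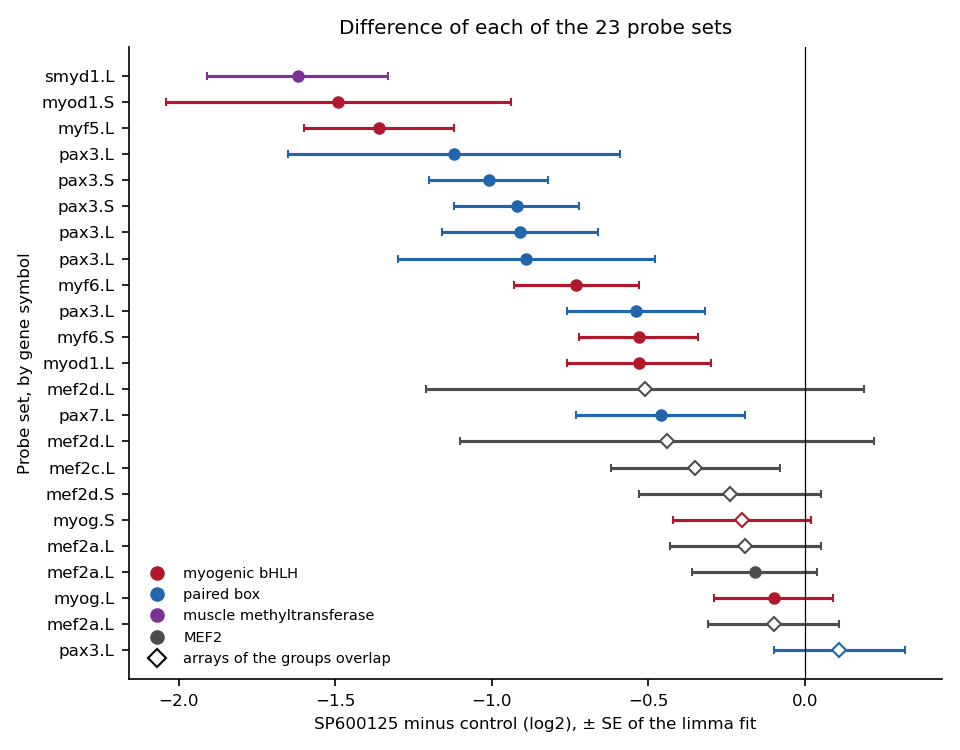
Log2 difference, SP600125 minus control, of each of the 23 probe sets with the SE of the limma fit as bars, ordered by size and coloured by role. Open diamonds mark probe sets whose groups overlap. The top of the order holds smyd1.L, myod1.S and myf5.L, and 6 of the 8 diamonds are mef2 probe sets.

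Replicate number was the strongest source of variation in the whole table, with 62.7% of the sum of squares against 20.8% for treatment. The labels do not say what the numbers share. The size of the difference between numbers exceeded that between treatments for 70.4% of all probe sets and for 7 of the 23 of the regulators, a count that the choice of genes by their treatment difference fixed in part. Of these 7, 5 were mef2 probe sets. The other 2 were myog.S and the dim probe set of pax3.L. When each treated array was set against the control of its own number, 20 of 23 probe sets were lower within both numbers, compared with 24.6% of all probe sets. The median difference of the regulators was −0.71 within number 1 and −0.56 within number 2, while that of all probe sets was 0.00 and 0.02. Both values are parts of the treatment difference by which the genes were chosen. The choice therefore fixed them, and the count of 20, in part.

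**Figure D4:**
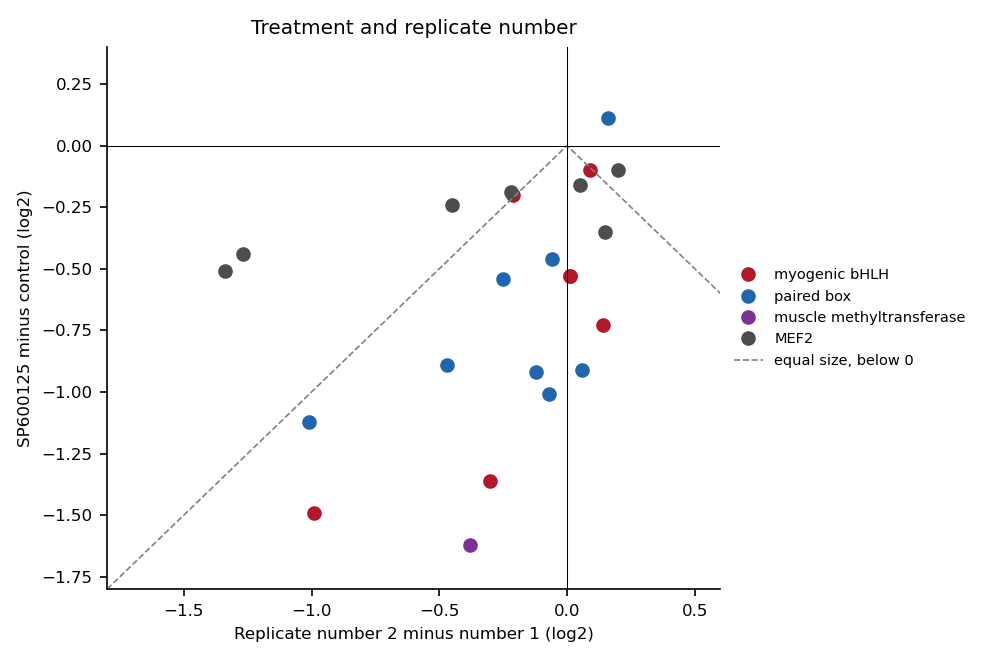
Difference by treatment (vertical axis, SP600125 minus control, log2) against difference by replicate number (horizontal axis, number 2 minus number 1, log2) for the 23 probe sets, coloured by role. Dashed lines mark equal size. The pair of mef2d.L probe sets at the far left differed by −1.27 and −1.34 between numbers, and most bHLH and paired-box points lie below the lines.

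By the median difference, partners of the bHLH factors lay between the regulators and the whole table, and inhibitors lay near the whole table. All 4 measured genes of the E proteins, the obligate dimer partners, had lower treated means, with a median of −0.31. For tcf3.L both treated arrays lay below both controls, at 10.45 and 10.04 against 11.05 and 10.57. Its copy tcf3.S differed by −0.38 ± 0.29, tcf12.S by −0.23 ± 0.33 and tcf12.L by −0.15 ± 0.50. Among 1 probe set per gene symbol over the whole table, 9.1% had both treated arrays below both controls and 12.3% above. Of 10 genes that inhibit or compete with the bHLH factors, 2 lay below and 1 above, with a median of −0.05. The inhibitor gene twist1.L differed by −0.68 ± 0.39 and the repressor gene zeb1.S by −0.61 ± 0.37. At the other end stood id2.L at 0.06 ± 0.31 and mdfic.S at 0.28 ± 0.19. Across the whole table the median with 1 probe set per symbol was 0.02.

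Coactivators, corepressors and chaperone partners of MEF2, MyoD and SMYD1 were mixed. Of 17 genes, 3 had both treated arrays below both controls and 1 had them above, beside 9.1% and 12.3% of all gene symbols. The median was −0.33. The chromatin remodeller smarca4.S differed by −0.99 ± 0.83 and the methyltransferase prmt5.S by −0.68 ± 0.79, with replicates spread more widely than the groups. The corepressor hdac3.S differed by 0.09 ± 0.19 and the remodeller subunit smarcd3.S by 0.22 ± 0.56.

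Genes that act before or beside the bHLH factors in paraxial mesoderm lay lower in larger number. Of 25 measured, 10 had both treated arrays below both controls and 0 above, beside 9.1% and 12.3% of all gene symbols. The median was −0.44. The presomitic gene msgn1.L read 8.01 and 8.23 in the controls and 6.99 and 6.05 after SP600125. The T-box gene tbx6.L differed by −1.29 ± 0.76 but varied as much with replicate number, at 8.17 and 6.63 against 6.83 and 5.39. Serum response factor, srf.L, differed by 0.00 ± 0.20 and the phosphatase eya3.L by 0.03 ± 0.22. Both have wide expression.

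The differentiated muscle list holds many targets of these factors. In 18 of its 40 genes both treated arrays lay below both controls and in 0 above, beside 9.1% and 12.3% of all gene symbols. The median of the list was −0.51. The myosin heavy chain gene myh4.L read 10.54 and 9.47 in the controls and 6.06 and 8.21 after SP600125. The related myh8.L read 7.05 and 6.02 against 3.61 and 4.15. Both are members of a multigene family whose transcripts probes may share. The highest differences of the list were 0.55 ± 0.33 for smpx.L and 0.83 ± 1.23 for pdlim3.L, both overlapping. The summed linear level of the list ranged from 6834 to 11904 in controls and from 2929 to 3937 after SP600125. Such a sum, here and for the lists below, is carried mainly by the brightest genes, here actc1.L and myh4.L among them. It does not describe the whole list, of which 21 of 40 genes had a mean under 5. The part of fewer muscle cells, or of less muscle taken with the skin, in the lower regulators was not tested.

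The treated arrays stood in a different order in many muscle structural genes than in the regulators, a difference that was not tested. Replicate 2 of SP600125 read above replicate 1 for 33 of 40 muscle genes, with a median step of 0.39. Among the regulators, by 1 probe set per homeolog, it did so for 6 of 15, with a median step of −0.11, and over the whole table for 58.2% of genes, with a median step of 0.09. Among genes with both treated arrays below both controls, it did so for 17 of 18 muscle genes, 5 of 10 regulators and 49.5% of the whole table. The controls varied too. Control replicate 2 read above control replicate 1 for 17 of 40 muscle genes, with a median step of −0.20. For the regulators this held in 4 of 15, with a median step of −0.27. Over the whole table it held for 6518 of 11295 genes, with a median step of 0.08. Among genes with both treated arrays below both controls, it held for 2 of 18 muscle genes, 4 of 10 regulators and 428 of 1028 genes of the whole table. Single genes of both lists varied in this step. Among the regulators it was −0.24 for myf5.L, −0.13 for smyd1.L and 0.04 for pax3.S. It was −1.04 for the brightest probe set of pax3.L and −1.46 for that of mef2d.L. Among the muscle genes it was 2.15 for myh4.L, 0.55 for myh8.L and −0.39 for actc1.L. These counts and examples were chosen after the values were seen and describe 2 arrays in each group.

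**Figure D5:**
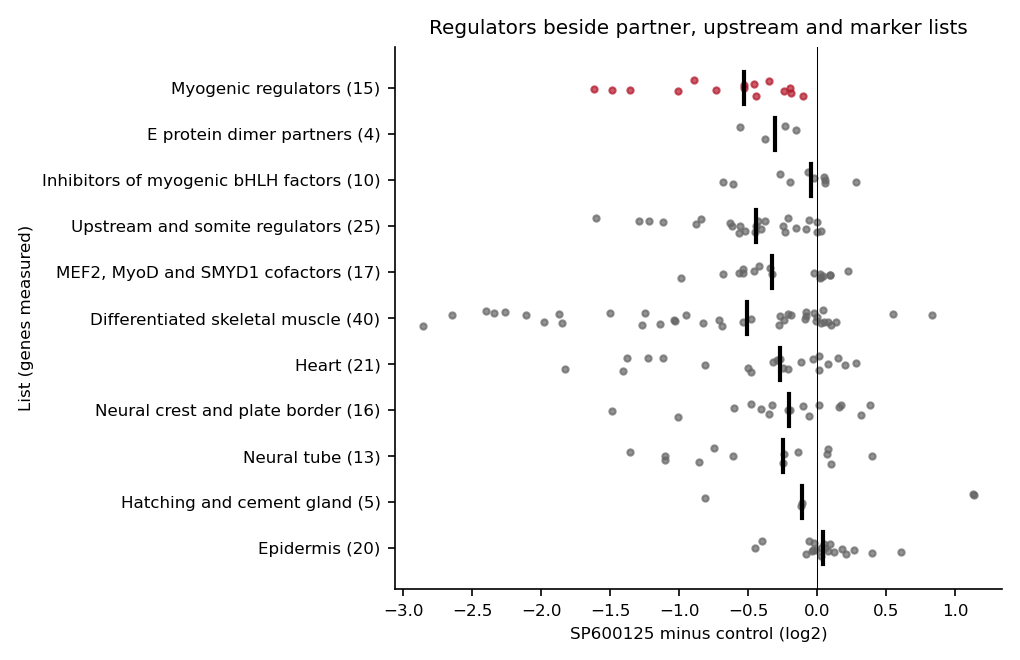
Log2 difference, SP600125 minus control, for each measured gene (1 probe set per symbol) of the myogenic regulators in red and of 10 other lists in grey, with the number of genes in brackets and the median as a black bar. The medians run from −0.53 for the regulators and −0.51 for differentiated muscle to 0.04 for epidermis.

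Several of the regulators also work outside muscle, and markers of those tissues were read in the same way. Heart genes, beside which mef2c and smyd1 act, had 9 of 21 with both treated arrays below both controls and 1 above. Over all gene symbols these shares were 9.1% and 12.3%. The median of the heart genes was −0.27. The most different were hand1.L at −1.83 ± 0.41 and gata4.L at −1.41 ± 0.20, genes that also mark lateral mesoderm and endoderm. At the high end of the list, the cardiac genes nkx2-5.S and nkx2-3.L differed by 0.20 ± 0.55 and 0.28 ± 0.34. Other cardiac genes lay lower, such as tbx5.L at −0.48 ± 0.29 and tbx20.L at −0.32 ± 0.22. Of the 21 genes, 15 had a lower treated mean and 6 a higher one, beside 45.9% lower over all gene symbols. A mean under 5 was found for 9 of the 21. The summed level of the heart list ranged from 2143 to 2723 in controls and from 1416 to 1421 after SP600125. The brightest gene in this sum was hand1.L, at 10.02 and 9.49 in the controls and 8.38 and 7.46 after SP600125.

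Neural crest and plate border genes, which share pax3 and pax7, had 1 of 16 below and 0 above, with a median of −0.20. Over all gene symbols 9.1% were below and 12.3% above. The border gene zic1.S read 8.58 and 6.96 in the controls and 6.51 and 6.04 after SP600125, and zic2.L differed by −1.01 ± 0.72. At the high end of the list, the crest genes snai2.S and sox9.L differed by 0.32 ± 0.26 and 0.38 ± 0.33. The other copy, snai2.L, differed by −0.60 ± 0.47. Of the 16 genes, 11 had a lower treated mean and 5 a higher one, beside 45.9% lower over all gene symbols. The summed level overlapped, from 3305 to 5286 in controls and from 3191 to 4371 after SP600125. Neural tube genes had 3 of 13 below and 0 above, with a median of −0.25, from −1.36 ± 0.80 for sox3.L and −1.10 ± 0.29 for en2.L to 0.10 ± 0.20 for nkx6-2.L and 0.40 ± 0.46 for otx2.S. Their summed level ranged from 2687 to 6537 in controls and from 3090 to 3351 after SP600125. The share of crest and neural tissue in the lower pax3 levels was not tested.

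The list of hatching and cement gland genes, ectodermal glands of which the former uses pax3, had 5 measured genes, none of them for a hatching enzyme. Of the 5, 0 were below and 2 above, namely crx.L at 1.13 ± 0.33 and crx.S at 1.14 ± 0.38, while pitx1.L differed by −0.81 ± 0.80 and agr2.S by −0.12 ± 0.38. Epidermal genes had 0 of 20 below and 3 above, with a median of 0.04. The shares over all gene symbols were 9.1% below and 12.3% above. The ionocyte factor foxi1.L differed by 0.61 ± 0.20 and grhl1.L by 0.40 ± 0.47, and at the low end foxj1.L differed by −0.45 ± 0.59 and tfap2a.L by −0.40 ± 0.57. The summed epidermal level ranged from 79406 to 82160 in controls and from 83802 to 86250 after SP600125. Its brightest genes, itln1.L and krt70.S, lay near the highest level of the table, 14.26, so the sum may miss a change.

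The genes whose pattern over the 4 arrays was closest to that of myf5.L were found by the root mean square distance between log2 values centred on each probe set's own mean, over all probe sets with 1 gene symbol. The nearest named gene outside the regulators was gata5.L, an endodermal and cardiac factor, at a distance of 0.113, with 7.59 and 6.98 in the controls and 5.93 and 5.87 after SP600125. It was followed by msgn1.S at 0.131 and by smo.L, the Hedgehog signal transducer, at 0.142. The segmentation gene hes7.2.L stood at 0.174, the tRNA methyltransferase gene ftsj1.S at 0.190 and the cold-inducible RNA-binding protein gene cirbp.S at 0.196. The pattern of myf5.L is mostly its treatment difference of −1.36, with smaller replicate steps of −0.36 and −0.24. Nearness to it therefore mainly picks genes with a like treatment difference, here from −1.38 for gata5.L to −1.04 for ftsj1.S. The matching probe sets of smo.L, hes7.2.L and cirbp.S were not the brightest of their genes. Other probe sets of smo.L differed by −1.01 ± 0.21 and −0.56 ± 0.19 and those of hes7.2.L by −0.85 ± 0.20 and −1.18 ± 0.20. The match of cirbp.S rested on 1 of its 5 probe sets, since its 2 brightest differed by 0.00 ± 0.20 and 0.01 ± 0.20. Of the regulators themselves, smyd1.L lay at 0.17 and the brighter pax3.S probe set at 0.21, whereas myod1.S lay at 0.38 and mef2d.L at 0.68.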

How the data were processed

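The authors deposited log2 values, 1 per probe set and array, made with affy and RMA per the submitters' processing notes, with no versions, probe definition or filters given in the sources used here. RMA makes the arrays' distributions nearly equal (array medians 6.85 to 6.94), so that shifts common to most genes are removed. Of 16755 probe sets, 10 control probe sets were left out. Genes were named through GEO's platform annotation, where 15445 probe sets had 1 symbol, 279 several and 1021 none. No probe set naming several genes held a regulator. Groups came from the sample titles. The fit used limma 3.58.1 under R 4.3.3, with moderated variances (2 residual and 2.1 prior degrees of freedom, two-sided) over 16745 probe sets with Benjamini-Hochberg adjustment. It was tried on simulated data with independent noise and no effect of replicate number, unlike the measured arrays. Python 3.11.15 and matplotlib 3.10.9 drew the figures. In lists, a gene was represented by its probe set with the highest mean, while likeness to myf5.L was sought over all named probe sets.

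The regulators and the 10 other lists were chosen with earlier results of these data known. The text names the 2 lowest and 2 highest genes of each list, the brightest muscle probe set and the 6 genes closest to myf5.L. The epidermal gene itln1.L was named after its values were seen. Alternatives were a replicate block, dim probe sets left out, renewed cyclic loess or quantile normalization, a trended robust prior, other summaries of probe sets, and each array left out in turn.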

Additional observations from a re-analysis of the deposited data

How the results depend on the processing

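In each of the alternatives run, 0 probe sets passed an adjusted p under 0.05 with limma. The count at an unadjusted p under 0.05, 269 as reported, was 158 with probe sets of a mean log2 level under 5 left out and 1063 with the replicate number as a block, and it ranged from 149 (without control replicate 1) to 516 (without SP600125 replicate 1) with each array left out, with 430 without control replicate 2. The labels do not say that the numbers pair the samples. The steps between replicates correlated at 0.59 over probe sets between the groups, and the block left the median of the regulators at −0.53. With dim probe sets left out, the median over the 11 regulator probe sets that remained was −0.91, and 8 of them had both treated arrays below both controls, beside 8.87% of all probe sets as bright. The 8 regulator probe sets are fewer than the 15 of the full list because dim ones were not counted. With each array left out the median ranged from −0.40 to −0.69. Renewed normalization gave medians of −0.53 and −0.52. Differences of the 15 genes changed sign in few runs, namely mef2a.L (0.02) and mef2d.L (0.29) without SP600125 replicate 2 and mef2d.L (0.11) without control replicate 1, where mef2d.S was 0.00. The differences of myod1.S ranged from −2.16 to −0.82, those of pax3.L from −1.41 to −0.37 and those of smyd1.L from −1.94 to −1.30. Signal limits the reading of myog, mef2a, myf6, myod1.L, pax7.L and mef2d.S, whose brightest probe sets had means under 5.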
